A study of Mus musculus with 6 samples.

Results

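The nuclear genes of oxidative phosphorylation were examined in mouse hematopoietic stem cells (HSC), which renew themselves in bone marrow and give rise to blood. Members were the probe sets whose single gene symbol started with Nduf, Sdha to Sdhd, Uqcr, Uqcc, Cox4 to Cox8 or Atp5. This gave 118 of 28815 probe sets, which stand for 92 genes. A probe set entered the tests if its mean level over the 6 arrays reached the 40th percentile, a log2 level of 8.79, and 113 of 17289 such probe sets were members, standing for 87 of 12455 genes. The groups were HSC of Selp-/- mice, which lack P-selectin, and HSC of wild-type (WT) mice, with 3 arrays each, numbered 1 to 3 within each genotype in the labels. Both are labelled C57BL/6, and no other allele or agent is given. Age, the sort that defined the HSC, the design of the Selp allele and any pooling of mice are not given in the sources used here. The labels do not say that arrays came from separate mice, so the p-values rest on a spread between arrays that may be technical only.

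Oxidative phosphorylation runs in the inner mitochondrial membrane. Complex I takes electrons from NADH and complex II takes them from succinate, both pass them to coenzyme Q, complex III hands them to cytochrome c, and complex IV gives them to oxygen. Complexes I, III and IV pump protons, and complex V, the ATP synthase, makes ATP as protons flow back. Quiescent HSC are known for relying strongly on glycolysis, with use of oxidative phosphorylation increasing as they leave quiescence and differentiate.

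The arrays numbered 3 stood apart from the others in both genotypes, and this touches every result below. Sums below are of normalized intensity over all matched markers of a list, tested or not. Of 25 HSC markers, 22 were matched and tested. Their summed intensity was 49977, 63862 and 23180 in Selp-/- 1, 2 and 3, against 54583, 59751 and 28014 in WT 1, 2 and 3. The lowest intensity over all probe sets was above 0 on every array, so no marker could be at 0. This does not show that each marker was detected. Markers of basophils and mast cells, of which 15 of 16 were matched and 10 tested, summed to 11922, 13493 and 53194 in the Selp-/- arrays, against 12129, 11841 and 71078 in the WT arrays. Monocyte and macrophage markers, of which 15 of 17 were matched and 14 tested, summed to 16910, 17434 and 56329 in the Selp-/- arrays, against 15621, 16986 and 33188 in the WT arrays. In RNA from bulk samples, fewer cells of a type and less RNA per cell cannot be told apart. No probe set was named for Selp in the annotation used, and its level therefore did not check the genotype labels.

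By genotype, the subunit genes lay slightly higher in mean in Selp-/- HSC, and no member passed the test. The fit called 0 of 113 member probe sets at an adjusted p of 0.05, against a background of 0% of 17289 probe sets (limma, Benjamini-Hochberg), and the lowest adjusted p among the members was 1. With array number as a block the count was again 0 of 113, against a background of 0%, with a lowest adjusted p of 0.983. At an unadjusted p under 0.05, 1 of 87 genes passed, against a background of 0.626% of 12455 genes, and 1 of 113 probe sets, against 0.706%. With the block 9 of 87 genes passed, against a background of 2.9%, and 11 of 113 probe sets, against 3.64%. Those 9 genes were Cox5b, Ndufa1, Ndufaf4, Cox7a2, Ndufv2, Ndufb6, Atp5d, Ndufa4 and Sdhc, and each was higher in mean in Selp-/- HSC, a direction in which 1.89% of all tested genes passed.

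The direction of the differences was the same for most tested members. A log2 fold change is the mean log2 level in Selp-/- minus that in WT, and it was above 0 in 70 of 87 tested member genes, or 80.5%, against 55.8% of all 12455 tested genes. Selp-/- exceeded WT within each of the 3 array numbers in 28 of 87 genes, against a background of 13.7%. WT exceeded Selp-/- within each number in 0 of 87, against a background of 9.68%. The genotypes did not overlap, with every Selp-/- array above every WT array, in 7 of 87 genes, against a background of 2.36%, and the opposite was seen in 0 of 87, against 1.85%. These counts carry no test, since the genes of a pathway share the same 6 arrays. The scaling mattered for the overlap, which was absent, in either direction, in 8.05% of tested members after quantile normalization, against 4.22% of all tested genes. The share was 3.45% after median centring, against 4.10%, and 1.15% with no normalization, against 2.06%. With no normalization the median log2 fold change of all genes was 0.12, and 80.5% of tested members were above that median.

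The median difference of the subunits was smaller than the typical error of a single subunit's fold change. No error of the median itself was computed. Over the 79 subunit genes tested the median log2 fold change was 0.078, over all tested genes 0.016, and over the 8049 other genes within the level range of the subunits 0.017, while the median standard error of a subunit's fold change was 0.16, and 0.11 with array number as a block. The standard errors given for single genes are those of the fit without the block. The subunit median depended on single arrays. It was 0.016 without Selp-/- 3 and 0.023 without WT 2, and it was 0.16 without Selp-/- 2, 0.14 without WT 1 and 0.12 without WT 3. The share of members above 0 was 57.5% without Selp-/- 3, against 55.9% of all genes in the same fit, and 57.0% without WT 2, against 53.6%. With both arrays numbered 3 left out, the subunit median was 0.068 and the share above 0 was 67.8%, against 58.3% of all genes. By complex the median was then 0.11 in I, 0.043 in II, 0.083 in III, 0.0054 in IV and 0.014 in V.

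The subunits also differed by array. Relative to each gene's mean over the 6 arrays, the median subunit lay at 0.031, -0.096 and 0.17 (log2) in Selp-/- 1, 2 and 3, against 0.022, -0.20 and 0.039 in WT 1, 2 and 3. Selp-/- 3 was the highest array and WT 2 the lowest. The other 4 arrays lay between them, with WT 1 and WT 3 both above Selp-/- 2.

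**Figure D1:**
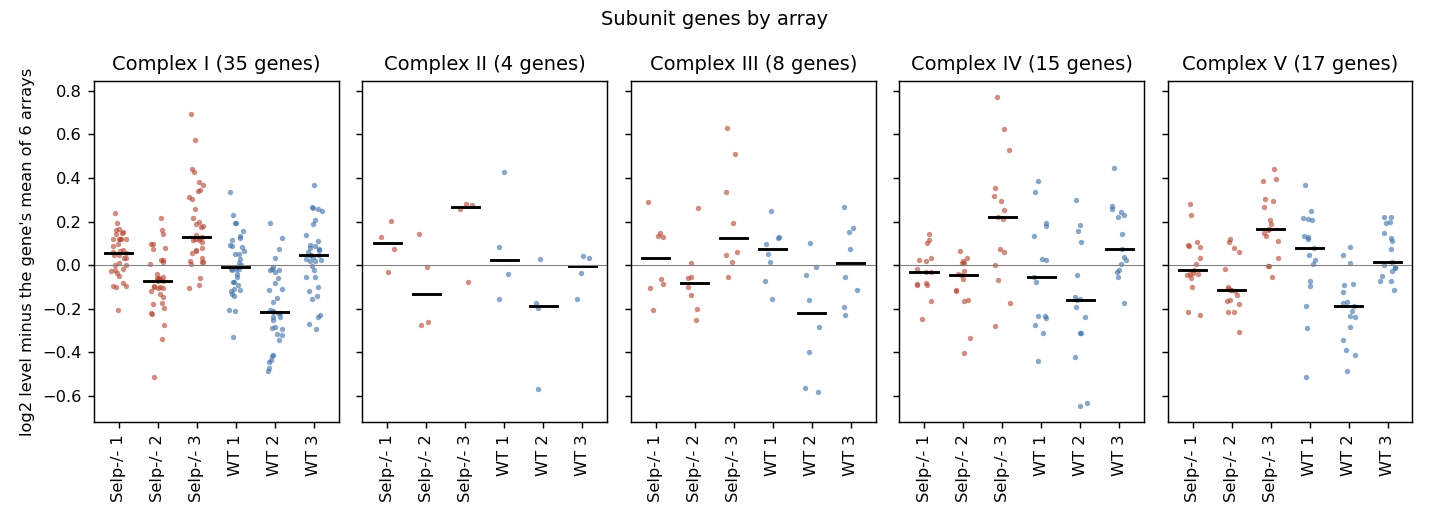
Each point is a subunit gene, plotted as its log2 level minus the gene's mean over 6 arrays (vertical axis), by array (horizontal axis), with a panel per complex and a bar at the median. Selp-/- arrays are red and WT arrays blue. In complex I, with 35 genes, the median was highest in Selp-/- 3, at 0.13, and lowest in WT 2, at -0.21.

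Within array numbers the subunit genes leaned to Selp-/- least in number 1. The median difference between Selp-/- and WT was 0.033 in number 1, 0.10 in number 2 and 0.14 in number 3, against 0.025, 0.023 and -0.003 over all tested genes. Of 79 subunits, 44 were above 0 in number 1, 56 in number 2 and 63 in number 3, against 55%, 54.6% and 49.3% of all tested genes. The share in number 1 was therefore near its background.

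The order of the members by difference was not alike between numbers. Across the 87 tested members, the differences in numbers 1 and 2 had a Spearman correlation of -0.15, those in numbers 1 and 3 of 0.26, and those in numbers 2 and 3 of -0.11. Over all 12455 tested genes the same correlations were -0.10, 0.15 and -0.15. These describe genes that share the arrays and their normalization.

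**Figure D2:**
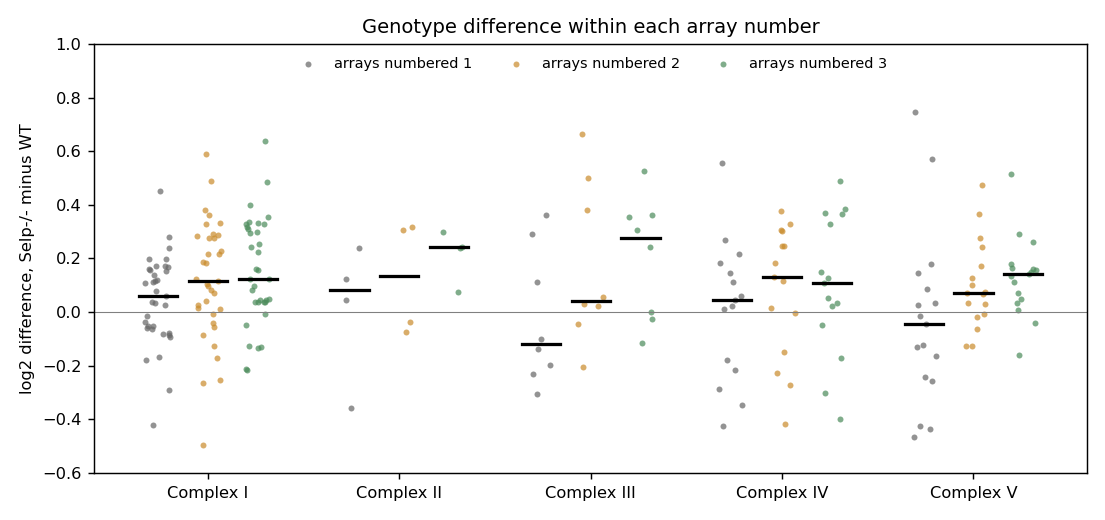
Each point is a subunit gene, plotted as its log2 difference between Selp-/- and WT within an array number (vertical axis), grouped by complex (horizontal axis) and coloured by number, with a bar at the median. The medians of complex III lay at -0.12, 0.043 and 0.27 in numbers 1, 2 and 3, and those of complex I at 0.059, 0.12 and 0.12.

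Complex I, the NADH dehydrogenase, supplied 36 genes by symbol, of which 35 were tested and Ndufa4l2 fell below the filter. In mean, 29 of 35 were higher in Selp-/- HSC, with a median log2 fold change of 0.097, and 15 were higher in every number. The median was 0.023 without Selp-/- 3, 0.024 without WT 2, and 0.17 without Selp-/- 2 or without WT 3. The 9 tested Ndufb genes, accessory subunits of the membrane arm, were all above 0 with a median of 0.13. The 6 tested core subunits, which carry the flavin and the iron-sulfur clusters or line the path to coenzyme Q, had 4 above 0 and a median of 0.11. The 14 Ndufa genes had 11 above 0 and a median of 0.065.

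Among the core and the nearby hydrophilic subunits, 3 genes did not overlap between genotypes. Ndufv2, an iron-sulfur subunit of the NADH-binding module, had log2 levels of 11.85, 11.73 and 11.90 in Selp-/- 1, 2 and 3, against 11.68, 11.45 and 11.60 in WT 1, 2 and 3. Its log2 fold change was 0.25 (SE 0.13, limma adjusted p = 1). The lowest Selp-/- array, number 2, lay just above the highest WT array, number 1.

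Ndufs8, an iron-sulfur subunit of the arm that leads electrons to coenzyme Q, had log2 levels of 11.32, 11.36 and 11.45 in Selp-/- 1, 2 and 3, against 11.21, 11.02 and 11.21 in WT 1, 2 and 3. Its log2 fold change was 0.23 (SE 0.13, limma adjusted p = 1), and the separation was widest in number 2. Ndufs3, a core subunit of the same arm, had 11.02, 10.86 and 10.86 in the Selp-/- arrays, against 10.85, 10.85 and 10.70 in the WT arrays. Its log2 fold change was 0.12 (SE 0.13, limma adjusted p = 1). The genotypes were separated by about the width of rounding in Ndufs3, and its other probe set had a fold change of 0.018.

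The remaining 2 complex I genes without overlap belong to the membrane arm. Ndufb2 had log2 levels of 8.95, 8.997 and 8.87 in Selp-/- 1, 2 and 3, against 8.84, 8.82 and 8.54 in WT 1, 2 and 3, with a log2 fold change of 0.21 (SE 0.12, limma adjusted p = 1). Ndufc2 had 12.59, 12.41 and 12.68 in the Selp-/- arrays, against 12.39, 12.38 and 12.35 in the WT arrays, with a log2 fold change of 0.19 (SE 0.11, limma adjusted p = 1). The WT arrays of Ndufc2 were close together, and Selp-/- 2 lay only just above them.

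The largest mean differences in complex I were in genes whose genotypes did overlap. Ndufa4, named for complex I but known as a subunit of complex IV, had log2 levels of 10.52, 10.27 and 10.69 in Selp-/- 1, 2 and 3, against 10.44, 9.98 and 10.06 in WT 1, 2 and 3, a log2 fold change of 0.33 (SE 0.18). Ndufb6, a membrane arm subunit, had 11.07, 10.66 and 11.26 in the Selp-/- arrays, against 10.62, 10.62 and 10.78 in the WT arrays, a log2 fold change of 0.33 (SE 0.18). In each of them 1 WT array reached into the Selp-/- range, WT 1 for Ndufa4 and WT 3 for Ndufb6.

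Ndufa1, a small X-linked subunit of the membrane arm, had 9.28, 9.13 and 10.02 in the Selp-/- arrays, against 8.9997, 8.84 and 9.70 in the WT arrays, a log2 fold change of 0.30 (SE 0.30). Its difference was nearly the same in each number, at 0.28, 0.29 and 0.33, while both arrays numbered 3 lay well above the rest. Its fold change was 0.024 without Selp-/- 3 and 0.56 without WT 3. With array number as a block its SE was 0.092, with an adjusted p of 0.983 (limma). The other X-linked members were Ndufb11, a membrane arm subunit with a log2 fold change of 0.020, and Cox7b, a complex IV subunit with 0.13. Beside these stand the levels of Xist, the RNA that coats the inactive X chromosome, at 13.23, 13.20 and 8.002 in Selp-/- 1, 2 and 3, against 12.85, 13.60 and 12.08 in WT 1, 2 and 3. The Y-linked Eif2s3y, whose mean level fell below the filter, had 6.44, 7.77 and 9.59 in the Selp-/- arrays, against 8.82, 6.44 and 8.68 in the WT arrays. Of 5 sex-linked genes listed, 4 were matched on the arrays and 1, Xist, was tested. The part of sex-linked genes in the Ndufa1 and Cox7b differences was not tested.

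The lowest complex I genes were Ndufs1 and Ndufa11. Ndufs1, the largest iron-sulfur subunit of the NADH-binding module, had log2 levels of 10.11, 9.45 and 10.11 in Selp-/- 1, 2 and 3, against 10.19, 9.95 and 9.98 in WT 1, 2 and 3. Its log2 fold change was -0.15 (SE 0.20), and 0.068 without Selp-/- 2, the lowest array. Ndufa11, an accessory membrane subunit, had a log2 fold change of -0.10 (SE 0.13), while its other probe set had 0.051.

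Complex II, succinate dehydrogenase, has no subunit encoded in mitochondrial DNA, and all 4 of its genes were tested. Each was above 0, with a median log2 fold change of 0.10, which was 0.054 without Selp-/- 3, 0.056 without Selp-/- 1, 0.061 without WT 2, 0.19 without WT 1 and 0.22 without Selp-/- 2. Sdhc, a membrane anchor, had log2 levels of 11.56, 11.73 and 11.85 in Selp-/- 1, 2 and 3, against 11.43, 11.42 and 11.55 in WT 1, 2 and 3. Its log2 fold change was 0.25 (SE 0.13, limma adjusted p = 1), with no overlap, though Selp-/- 1 and WT 3 were nearly equal. Sdhc is the 1 member gene within 10 Mb of Selp on chromosome 1. An effect of sequence that travels with the Selp allele therefore cannot be told apart from one of the lack of P-selectin.

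The other complex II genes overlapped. Sdhd, the second membrane anchor, had a log2 fold change of 0.14 (SE 0.18), which was 0.033 without Selp-/- 3 and 0.31 without Selp-/- 2. Sdhb, the iron-sulfur subunit, had 0.063 (SE 0.28), with 10.78, 10.45 and 10.99 in Selp-/- 1, 2 and 3, against 11.14, 10.14 and 10.75 in WT 1, 2 and 3. WT 1 was the highest and WT 2 the lowest of the 6 Sdhb values, so that the fold change was -0.21 without WT 2 and 0.30 without WT 1. Sdha, the flavin-bearing catalytic subunit, had a log2 fold change of 0.028 (SE 0.13).

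Complex III, the cytochrome bc1 complex, had 8 genes by symbol, all tested. Its subunit cytochrome c1 (Cyc1) falls outside the symbol rule and was listed with the electron carriers and coenzyme Q genes. In mean 7 were above 0, with a median of 0.14, yet 0 of 8 were higher in every number. The median was 0.032 without WT 2, 0.072 without Selp-/- 3 and 0.24 without Selp-/- 2. Uqcr10, a small subunit, had log2 levels of 9.46, 9.49 and 10.06 in Selp-/- 1, 2 and 3, against 9.60, 8.99 and 9.70 in WT 1, 2 and 3, a log2 fold change of 0.24 (SE 0.24). WT 2 was the low value here, and the fold change was 0.018 without it.

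Uqcrb, known as a ubiquinone-binding protein, had a log2 fold change of 0.19 (SE 0.11), and Uqcr11, another small subunit, had 0.15 (SE 0.21), which was 0.023 without Selp-/- 3 and 0.32 without Selp-/- 2. The core proteins of the matrix side lay lower in the order, with 0.055 (SE 0.12) for Uqcrc2 and -0.096 (SE 0.14) for Uqcrc1. Uqcrc1 was the only Uqcr gene below 0.

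Complex IV, cytochrome c oxidase, had 17 genes, of which 15 were tested and Cox7a1 and Cox7b2 fell below the filter. In mean 9 of 15 were above 0, with a median log2 fold change of 0.0071, which was -0.023 without Selp-/- 3, 0.035 without Selp-/- 2, 0.052 without WT 1, 0.11 without WT 3 and 0.13 without Selp-/- 1. Among the tested genes the low median went with the isoforms known from other tissues. These were Cox4i2 of lung, Cox6a2 and Cox8b of heart and skeletal muscle, and Cox6b2 and Cox8c of testis, and 1 of these 5 was above 0, with a median of -0.078. The other 10 genes had 8 above 0, a median of 0.13 and 6 higher in every number. The split into isoforms was by known tissue and carries no test. The 5 isoforms were also lower in level, with a median of 9.41 against 11.59 in the other 10. Cox7a1 and Cox7b2, left out by the filter, lay higher in mean in Selp-/-, at 8.73 against 8.57 and 7.23 against 7.02. With no filter the median of complex IV was 0.11.

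Cox5b, a zinc-binding nuclear subunit, had the largest log2 fold change of all members. Its levels were 11.74, 11.69 and 12.16 in Selp-/- 1, 2 and 3, against 11.19, 11.32 and 11.67 in WT 1, 2 and 3. The means were 11.86 ± 0.25 in Selp-/- and 11.39 ± 0.25 in WT (log2 level, SD, n = 3 each), a log2 fold change of 0.47 (SE 0.19), or 1.39-fold, with a limma adjusted p of 1. The lowest Selp-/- array, number 2, was just above the highest WT array, number 3.

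Cox5b differed by 0.56, 0.38 and 0.49 in numbers 1, 2 and 3, and its fold change stayed between 0.33 and 0.62 whichever array was left out, and was 0.47 without both arrays numbered 3. Its other probe set had 11.64, 11.65 and 11.87 in the Selp-/- arrays, against 11.16, 11.34 and 11.78 in the WT arrays, a log2 fold change of 0.29, and overlapped through WT 3. The annotation used does not say whether either probe set also detects near-identical copies, so the level of Cox5b is uncertain to that extent.

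**Figure D3:**
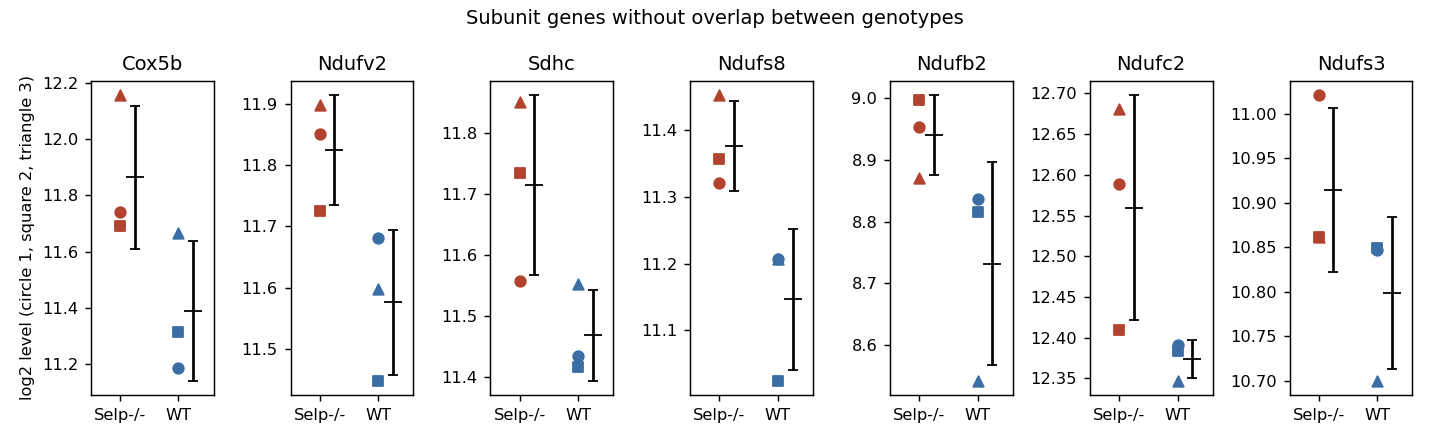
Log2 level (vertical axis) of the 7 subunit genes whose genotypes do not overlap, with Selp-/- in red at left and WT in blue at right, and circle, square and triangle for arrays 1, 2 and 3. Bars are the mean and SD of 3 arrays, and each panel has its own axis. Cox5b has the widest difference, 0.47, and Ndufs3 the narrowest, 0.12.

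Cox7a2 and Cox6a1 are the widely expressed isoforms of a pair of small subunits. Cox7a2 had log2 levels of 10.31, 10.0005 and 11.11 in Selp-/- 1, 2 and 3, against 10.10, 9.70 and 10.78 in WT 1, 2 and 3, a log2 fold change of 0.28 (SE 0.36). Cox6a1 had 11.69, 11.15 and 12.17 in the Selp-/- arrays, against 11.58, 10.90 and 11.81 in the WT arrays, a log2 fold change of 0.24 (SE 0.33). In both genes Selp-/- exceeded WT in every number while the numbers themselves lay further apart than the genotypes. With array number as a block the SE was 0.10 for both, with an adjusted p of 0.983 (limma).

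Cox6b1, a subunit on the side of the intermembrane space, had a log2 fold change of 0.13 (SE 0.19), and Cox6c, a membrane subunit, had 0.14 (SE 0.12). Cox5a, a matrix-side subunit, had 0.11 (SE 0.19). Cox4i1, the widely expressed isoform of the largest nuclear subunit, had 0.0061, and Cox8a, a small membrane subunit, had -0.014.

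The lowest complex IV genes were Cox4i2 and Cox7a2l. Cox4i2 had a log2 fold change of -0.15 (SE 0.13). Cox7a2l, which is known to join complexes III and IV into supercomplexes, had -0.16 (SE 0.19), with 9.98, 10.08 and 9.89 in Selp-/- 1, 2 and 3, against 10.40, 9.75 and 10.29 in WT 1, 2 and 3. WT 2 lay below all Selp-/- arrays of Cox7a2l and the other WT arrays above them, and its other probe set had 0.18.

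**Figure D4:**
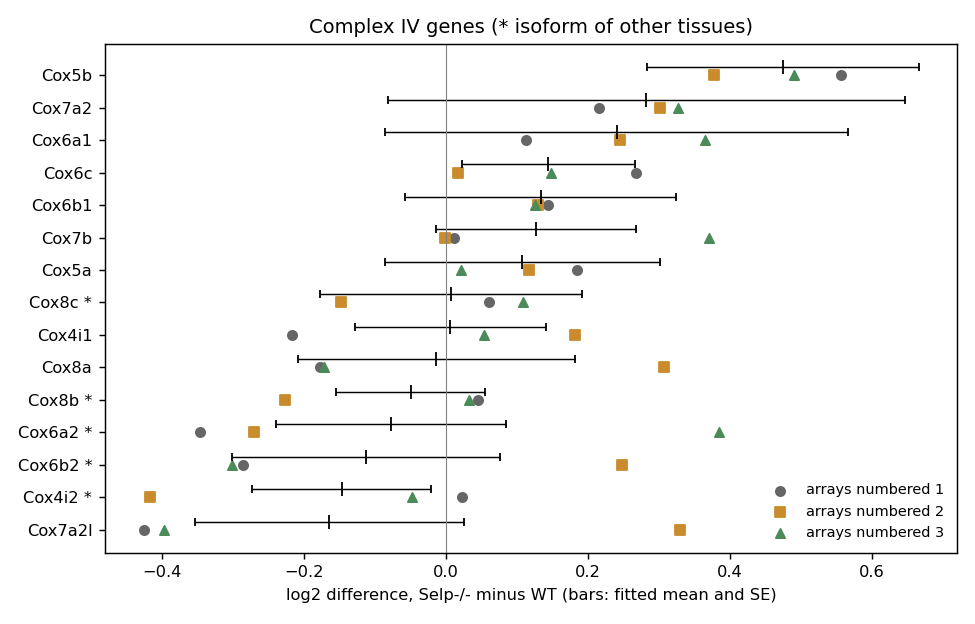
Log2 difference, Selp-/- minus WT (horizontal axis), of the 15 tested complex IV genes (vertical axis, highest first), with a marker for each array number and a bar for the fitted mean and SE. Cox5b, at 0.47, has all its markers right of 0, and the isoforms of other tissues, marked with an asterisk, have fitted means near or left of 0.

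Complex V, the ATP synthase, had 17 genes, all tested, of which 13 were above 0 with a median of 0.044. That median was -0.010 without Selp-/- 3, -0.0027 without WT 2, 0.11 without WT 1 and 0.12 without Selp-/- 2. Atp5d, the delta subunit of the F1 head, had log2 levels of 13.24, 13.12 and 13.17 in Selp-/- 1, 2 and 3, against 12.49, 12.88 and 13.13 in WT 1, 2 and 3. Its log2 fold change was 0.34 (SE 0.17), and 0.16 without WT 1. The Selp-/- arrays were close together and the WT arrays were spread below and into them.

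Atp5b, the catalytic beta subunit, had 13.57, 13.18 and 13.48 in Selp-/- 1, 2 and 3, against 13.0007, 13.30 and 13.22 in WT 1, 2 and 3, a log2 fold change of 0.24 (SE 0.14). Atp5k, a small membrane subunit, had a log2 fold change of 0.18 (SE 0.23), and 0.0087 without Selp-/- 3. Atp5b was lower in Selp-/- than in WT in number 2, and Atp5k was lower in number 1.

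The 3 genes that encode the same c subunit of the rotor had log2 fold changes of 0.15 (SE 0.17) for Atp5g1, 0.035 (SE 0.11) for Atp5g2 and 0.14 (SE 0.20) for Atp5g3. That of Atp5g1 was 0.039 without Selp-/- 3 and 0.27 without WT 3, and that of Atp5g3 was -0.020 and 0.29. The lowest in the complex were Atp5l, the membrane subunit g, with -0.084 (SE 0.25), and Atp5e, the epsilon subunit of the F1 head, with -0.13 (SE 0.15). The F1 head as a whole, 5 genes, had a median of 0.044.

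Assembly factors build the complexes and are not part of them. The 5 tested complex I factors of the Ndufaf group were all above 0 with a median of 0.082, and Ndufaf5 and Ndufaf6 fell below the filter. Ndufaf4 had log2 levels of 9.45, 9.02 and 9.22 in Selp-/- 1, 2 and 3, against 9.16, 8.79 and 8.90 in WT 1, 2 and 3, a log2 fold change of 0.27 (SE 0.15). The genotypes overlapped, although Ndufaf4 was higher in Selp-/- in every number. The 3 Uqcc genes, factors for complex III, were all above 0 with a median of 0.095.

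By array number, part of the members passed the test. The contrast of arrays numbered 3 against those numbered 1 and 2, with genotype in the model, called 12 of 87 member genes higher, against a background of 10.2%, and 0 of 87 lower, against a background of 10.5%. The difference was above 0 in 66 of 87, against 51.2% of all tested genes, and the subunit median was 0.17. By complex the medians were 0.13 in I, 0.20 in II, 0.098 in III, 0.22 in IV and 0.17 in V, against -0.044 and -0.086 for the assembly factors of complexes I and III. The count higher was near its background, and the count lower was below it. An F test over the 3 numbers called 4 of 87 genes, against a background of 13.5%. With no normalization the F test called 61 of 87 member genes, against 34.3% of all tested genes, and the contrast called 37 higher, against 24.3%. With median centring the F test called 8, against 14.6%.

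Of the genes called higher in number 3, Cox7a2, Ndufa1 and Uqcrq had the largest differences. Cox7a2 was higher by 0.92 (log2, SE 0.11, limma adjusted p = 0.00228), Ndufa1 by 0.80 (SE 0.10, limma adjusted p = 0.00275) and Uqcrq, a small subunit of complex III, by 0.67 (SE 0.17, limma adjusted p = 0.0309). Cox6a1 followed at 0.66 (limma adjusted p = 0.00855) and Ndufb5, a membrane arm subunit, at 0.62 (limma adjusted p = 0.0113). The other 7 were Ndufa3, Atp5g3, Cox6b1, Cox5b, Cox5a, Ndufb7 and Atp5g1, at 0.34 to 0.48.

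At the low end of the contrast stood assembly factors that did not pass the test. Ndufaf1 had -0.39 (SE 0.13, limma adjusted p = 0.0730), Ndufaf2 had -0.22 and Uqcc1 had -0.21. Over the same contrast 19 of 22 HSC markers were called lower, with a median of -1.21, and 8 of 10 basophil and mast cell markers, 12 of 17 neutrophil markers and 10 of 14 monocyte and macrophage markers were called higher, with medians of 2.20, 1.05 and 1.21. Of 9 erythroid markers, 5 were called lower, with a median of -0.62. The part of other cells in the subunit differences was not tested.

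Markers of other cells also differed between genotypes in number 3, in both directions. The median Selp-/- minus WT difference of the monocyte and macrophage markers was 0.16, 0.0094 and 0.69 in numbers 1, 2 and 3, with 11 of 14 above 0 in number 3. The megakaryocyte markers had 0.13, 0.39 and -0.75, with 0 of 9 above 0 in number 3, and the basophil and mast cell markers had -0.040, 0.14 and -0.46, with 1 of 10 above 0 there. The erythroid markers had 0.048, 0.23 and -0.39, with 3 of 9 above 0 there. In number 3 the median was -0.090 for the HSC, 0.013 for the neutrophil and 0.042 for the lymphoid markers. The part of these cells in the subunit differences was not tested.

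For the subunits, arrays numbered 2 lay below those numbered 1 in mean. The median difference was -0.14, with 14 of 79 above 0, against 52.7% of all tested genes, and 0 of 87 members were called lower, against a background of 0.0642%, and 0 of 87 higher, against a background of 0%. In this contrast the neutrophil markers had a median of -0.86, with 0 of 17 above 0 and 3 called lower, and the erythroid markers had -0.57, with 0 of 9 above 0 and 2 called lower. The summed normalized intensity of the 19 matched neutrophil markers was 62769, 27388 and 95659 in Selp-/- 1, 2 and 3, against 56252, 29374 and 100628 in WT 1, 2 and 3. For the 11 matched erythroid markers it was 36878, 19102 and 8346 in the Selp-/- arrays, against 36489, 17710 and 9700 in the WT arrays. Their part in the subunit difference was not tested.

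**Figure D5:**
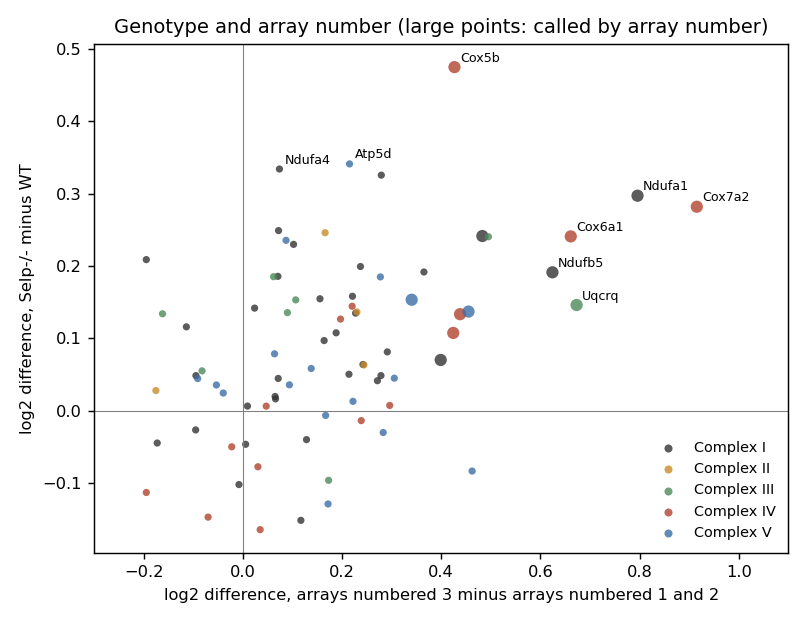
Each point is a subunit gene, with its log2 difference between arrays numbered 3 and those numbered 1 and 2 on the horizontal axis, its log2 difference Selp-/- minus WT on the vertical axis, and a colour per complex. Large points mark the 12 genes called higher in number 3, among them Cox7a2 at 0.92. All 12 lie above 0 by genotype, as do 62 of all 79 subunits, or 78.5%. The share among all genes called higher in number 3 was not computed. Without Selp-/- 3, Cox7a2, Cox6a1, Ndufb5, Atp5g3, Cox6b1 and Cox5a fell below 0 by genotype, while Ndufa1, Atp5g1 and Cox5b stayed above. Uqcrq, Ndufa3 and Ndufb7 were not read in that setting.

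The genes around the respiratory chain were read from lists of the pathway, and the genotype fit called 0 in each, against the background of 0%. Of 13 mitochondrially encoded subunits, 2 were measured, and both lay lower in mean in Selp-/-. COX2, a copper-bearing subunit of complex IV, had log2 levels of 13.85, 13.83 and 13.93 in Selp-/- 1, 2 and 3, against 14.03, 14.17 and 13.89 in WT 1, 2 and 3, a log2 fold change of -0.16 (SE 0.088). ND3, a membrane subunit of complex I, had -0.070. For COX2 the Selp-/- arrays lay within a narrow range that includes WT 3.

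Of 19 tested genes of electron carriers and coenzyme Q synthesis, 15 were above 0, with a median of 0.070. Coq7, with 0.21, and Coq6, with 0.16, are hydroxylases of coenzyme Q synthesis. They were the 2 of 19 without overlap, both higher in Selp-/-, against a background of 2.36% of all tested genes. As above, overlap depended on the scaling. The tricarboxylic acid cycle list had 12 of 16 above 0 and a median of 0.055, with 0.34 for Dld and 0.22 for Dlat, subunits of the pyruvate dehydrogenase complex. Other assembly factors had 20 of 29 above 0 and a median of 0.086, with 0.29 for Coa7 and 0.22 for Coa3, both factors for complex IV.

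The list of mitochondrial transcription and biogenesis had 10 of 17 above 0 and a median of 0.046. Tfam, which packages mitochondrial DNA, had a log2 fold change of 0.21, and Tfb1m, a methyltransferase of mitochondrial ribosomal RNA, had -0.19. The carriers of ADP, phosphate and protons had 9 of 11 above 0 and a median of 0.023, with 0.24 for Vdac2, an outer membrane channel, and 0.18 for Slc25a5, an ADP/ATP carrier.

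Promoters are shown because the nuclear subunits are known to share the regulators NRF1 and the ETS factor GABP. Windows from 250 bases before to 50 after the start, from RefSeq with assembly GRCm38.p6, were available for 76 of 92 member genes, 81 windows in all, and were searched on both strands for GCGCA followed by any base and GCGC (NRF1), CCGGAAG (ETS), AAGATGGCG (YY1) and TATAAA, whose matches did not overlap each other. The sequences below are cut from the bases before the start, 5′ to 3′ on the strand of the gene, and capitals mark a match to the NRF1 or ETS motif. Cox5b, the member with the largest difference, is shown beside genes of complexes II, IV and V that hold NRF1 matches.
Cox5b (chr1:36691237-36691486, + strand): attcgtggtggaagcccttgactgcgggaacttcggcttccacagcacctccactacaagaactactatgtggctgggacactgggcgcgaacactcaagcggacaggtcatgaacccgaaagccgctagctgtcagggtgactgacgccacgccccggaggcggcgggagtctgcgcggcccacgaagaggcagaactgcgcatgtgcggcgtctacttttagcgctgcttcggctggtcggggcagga
Cox6a1 (chr5:115348959-115349128, - strand): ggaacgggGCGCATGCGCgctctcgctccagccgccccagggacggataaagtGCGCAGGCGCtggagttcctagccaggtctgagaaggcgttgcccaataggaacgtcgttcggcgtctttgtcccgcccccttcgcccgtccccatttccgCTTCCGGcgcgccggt
Sdha (chr13:74350241-74350350, - strand): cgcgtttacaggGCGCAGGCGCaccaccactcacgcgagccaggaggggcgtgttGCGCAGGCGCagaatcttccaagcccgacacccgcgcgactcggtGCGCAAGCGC
Sdhd (chr9:50603880-50603939, - strand): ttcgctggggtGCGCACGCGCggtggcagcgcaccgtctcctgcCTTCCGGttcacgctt
Atp5k (chr5:108434420-108434469, - strand): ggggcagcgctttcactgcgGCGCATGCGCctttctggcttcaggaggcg
Atp5g2 (chr15:102671058-102671107, - strand): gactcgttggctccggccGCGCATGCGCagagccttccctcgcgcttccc

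The NRF1 motif was in 20 of 81 member windows, or 24.7%, against 9.05% of the windows of all tested genes and 4.60% of all promoter windows. The ETS motif was in 22.2% of member windows, against 16.1% and 8.86%. The YY1 motif was in 8.64%, against 2.67% and 1.40%. TATAAA was in 11.1%, against 7.44% and 13.6%.

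The genotype difference was also read by motif. Tested members with an NRF1 match had a median log2 fold change of 0.047 (18 genes), against 0.11 in those without (55 genes). Members with an ETS match had 0.12 (18 genes), against 0.082 in those without (55 genes), while the share above 0 lay the other way, with 13 of 18 against 47 of 55. Members with a YY1 match had 0.036 (7 genes), against 0.11 in those without (66 genes). Members with TATAAA had -0.040, with 2 of 7 above 0, against 0.11, with 58 of 66 above 0, in those without. The Sdha window above, with 3 NRF1 matches, belongs to a gene with a log2 fold change of 0.028, and the Cox5b window, with no match to these letters, to the gene with 0.47.

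The choice of probe set mattered for some genes. Of 18 members with several tested probe sets, 5 had log2 fold changes of opposite sign among them, namely Atp5h, Atp5md, Cox7a2l, Ndufa11 and Ndufb11. Symbols shared between several genes removed 6 further probe sets, of Cox7c, Ndufs5 and Ndufb4.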

How the data were processed

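Total RNA was amplified, labelled with biotin and hybridized to 1-colour arrays, per the labels' protocols. The authors deposited linear intensities, 1 per probe set and array. MAS5 appears in the submitters' processing notes without a version. All were multiples of 0.5 with array medians of 701, 638 and 713 in Selp-/- 1, 2 and 3, against 636, 563 and 751 in WT 1, 2 and 3, so scaling to a common level was not visible and the scale factor is unknown. The number of arrays limits the precision. Here the deposited intensities were background corrected (normexp, offset 50), taken as log2 and quantile normalized over 6 arrays with limma 3.58.1 in R 4.3.3. Probe sets under the 40th percentile of mean level were left out. Genotype was fitted by lmFit and eBayes with a variance trend, two-sided, with Benjamini-Hochberg adjustment over 17289 probe sets at 0.05. The genotype fit was also run on simulated data with known changes. Its power and error rate at differences of the size reported here are not given. A gene is its brightest probe set.

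Names came from the platform annotation, updated through RefSeq GRCm38.p6: 21780 probe sets had 1 symbol, of which 21689 matched, 1605 had several and 5430 none. The deposited values name no build.

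Members and lists were chosen with earlier results of these data known. Named in full were, per complex, up to 3 members with the highest and 2 with the lowest log2 fold change, those without overlap, the 3 highest and 3 lowest by array number, the isoform sets and the X-linked members, and up to 2 genes of smallest p per list. Ndufaf4, the other genes called by array number and those of p under 0.05 with the block were named after their values were seen.

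Arrays of the same number deviated together from their genotype means, with correlations of 0.428, 0.526 and 0.814 in numbers 1, 2 and 3. Arrays of different numbers were not compared in this way. With both arrays numbered 3 apart, arrays numbered 1 and 2 deviate the other way in both genotypes. The values 0.428 and 0.526 therefore cannot show that 1 goes with 1 and 2 with 2. The fit with array number as a block was run as an alternative. Others were no normalization, median centring, other background corrections and filters, no variance trend, all probe sets, arrays 1 and 2 alone and each array left out.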

Additional observations from a re-analysis of the deposited data

How the results depend on the processing

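No member was called by genotype under any setting run, the replicate block included (0 of 113 probe sets, lowest adjusted p = 0.983 in limma). Over all probe sets the share called was 0% in every setting but the arrays numbered 1 and 2 only, with 0.0231%, and 0.0925% with the replicate block. At an unadjusted p under 0.05 it was 1 member probe set in the fit without the block and 11 with it. Of 356 comparisons of 36 named genes under settings other than leaving out an array, 352 kept the sign. With arrays numbered 1 and 2 only, with and without the replicate block, Sdhb turned to -0.025 and Uqcr11 to -0.034. The median of complex I was 0.15 with median centring. The median of complex IV was 0.063 with median centring, 0.11 with no filter, 0.12 with the 60th percentile filter, 0.11 over all probe sets and 0.057 with Ndufa4 counted in it. With no normalization the median log2 fold change of all genes was 0.12, and fold changes there are given relative to it. In that setting 2.30% of members were lower in every number, against 12.1% of all tested genes. Those shares were taken relative to the median of all genes within each number. Without any such shift, 1.15% of members did not overlap, against 2.06% of all genes. With median centring 3.45% did not overlap, against 4.10% of all genes. With arrays 1 and 2 only, with and without the replicate block, 26.4% of members did not overlap, against 26.7% of all genes, since fewer arrays overlap less often. The array number F test called 61 members with no normalization (34.3% of all genes) and 8 with median centring (14.6%), where quantile normalization gave 4 (13.5%). The contrast of number 3 called 37 higher with no normalization (24.3%), where quantile normalization gave 12 (10.2%). The cause was not tested.

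Leaving out each array in turn gave these ranges. Over all subunits the median ran from 0.016 to 0.16, in complex I from 0.023 to 0.17, in II from 0.054 to 0.22, in III from 0.032 to 0.24, in IV from -0.023 to 0.13 and in V from -0.010 to 0.12. The share above 0 ran from 57.0% to 83.9%, and calls from 0 to 0. The share without overlap ran from 11.5% to 25.3%, with 13.2% of all genes at the upper end, without Selp-/- 2. It was 11.5% without Selp-/- 1, Selp-/- 3 or WT 1, against 8.31%, 12.1% and 10.4% of all genes in turn. Without WT 2 it was 18.6%, against 10.2% of all genes, and without WT 3 it was 23.0%, against 17.7%. Genes whose sign turned ran from -0.020 to 0.29 (Atp5g3), -0.30 to 0.050 (Atp5l), -0.011 to 0.27 (Cox5a), -0.024 to 0.50 (Cox6a1), -0.011 to 0.29 (Cox6b1), -0.034 to 0.57 (Cox7a2), -0.048 to 0.41 (Ndufb5), -0.26 to 0.068 (Ndufs1), -0.042 to 0.077 (Sdha) and -0.21 to 0.30 (Sdhb). Of the named genes that kept their sign, these moved by over 1.5 times: Atp5b (0.15 to 0.35), Atp5d (0.16 to 0.48), Atp5e (-0.27 to -0.056), Atp5g1 (0.039 to 0.27), Atp5k (0.0087 to 0.34), Cox4i2 (-0.21 to -0.036), Cox6c (0.057 to 0.21), Cox7a2l (-0.36 to -0.037), Ndufa1 (0.024 to 0.56), Ndufa11 (-0.14 to -0.031), Ndufaf4 (0.16 to 0.38), Ndufb2 (0.11 to 0.26), Ndufb6 (0.19 to 0.50), Ndufs3 (0.062 to 0.14), Sdhd (0.033 to 0.31), Uqcr10 (0.018 to 0.38), Uqcr11 (0.023 to 0.32), Uqcrc1 (-0.20 to -0.034) and Uqcrc2 (0.0046 to 0.099).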
